A study of Mus musculus with 6 samples.

Results

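S100 proteins and annexins are calcium-binding proteins, and 10 of their genes were followed in tumor-initiating cells (TICs) and the remaining tumor cells of a mouse mammary carcinoma. The members were chosen by gene symbol, 6 S100 genes (S100a1, S100a4, S100a6, S100a10, S100a11 and S100a14) and 4 annexin genes (Anxa1, Anxa2, Anxa3 and Anxa5), out of 41388 Ensembl genes in the count files. All 10 were found and all 10 passed the filter on low counts, as did 12192 genes in all. RNA-seq had been performed on TICs, which are CD24+CD90+CD45- (3 samples), and on the non-CD24+CD90+ tumor cells that remained, called the other tumor cells below (3 samples), both sorted from primary mammary tumors of FVB/N-TgN(MMTVPyVT)634Mul/J mice, which express the polyoma middle T antigen in the mammary epithelium under the MMTV promoter. After a first look at 2 ages, the study took its CD24+CD90+ cells from mice of 12 weeks. Cells positive for CD45 or for the dead-cell stain DAPI were gated out in both populations. The cells of 4 sorts, each from another mouse, had been pooled for every sample, which makes 12 mice for 3 samples, and whether TICs and other tumor cells came from the same mice is not given in the sources used here. Libraries were made from 120 ng of RNA. The comparison group is described as lacking both markers in the series text and as negative for either or both markers in the study's methods, so that cells with only CD24 or only CD90 may be part of it.

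S100 proteins are small EF-hand proteins that mostly act as dimers and change shape when calcium binds, which lets them hold on to target proteins. Annexins bind negatively charged membrane lipids in the presence of calcium and take part in membrane repair, vesicle traffic and the organization of cortical actin. The families meet in defined complexes. S100A10 and annexin A2 form a heterotetramer at the plasma membrane, and S100A11 binds annexin A1. S100a14, a protein of epithelia, Anxa3, known from mammary luminal progenitors, and S100a1, best known from muscle, are called the epithelial members here. The name is a label, and whether these genes follow the epithelial content of a sample was not tested. The other 7 genes, which fibroblasts and other mesenchymal cells express although several occur in most cell types, are called the mesenchymal members.

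The question was whether the members differ between TICs and the other tumor cells, and whether the epithelial and the mesenchymal members do so alike. Of the mesenchymal members, Anxa5 was about 2-fold higher in TICs and passed the test. Anxa1, S100a6 and S100a4 were higher in every TIC sample than in any sample of the other tumor cells, with fold changes between 1.89 and 3.57, but did not pass it. None of the epithelial members passed or had an unadjusted p below 0.05 by exactTest, the quasi-likelihood test or DESeq2, and in each of them the groups overlapped. Levels are in CPM, counts scaled to the total of the sample after TMM normalization, and errors are SDs over the 3 samples in a group. The groups were compared with edgeR's exactTest over all 12192 genes, and a gene was called where its p-value after Benjamini-Hochberg adjustment was below 0.1. With this rule 1 of the 10 members was called, beside 1.55% of all genes tested (1.36% higher and 0.189% lower in TICs). In 4 members all TICs lay above all samples of the other tumor cells, which was the case for 7.69% of all genes and for 8.35% of the genes with at least 100 CPM. An unadjusted p below 0.05 was reached by 5 members, all higher in TICs, beside 7.85% of all genes (4.74% higher in TICs). In a bulk sample, fewer cells of a type and less RNA per cell cannot be told apart.

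**Figure D1:**
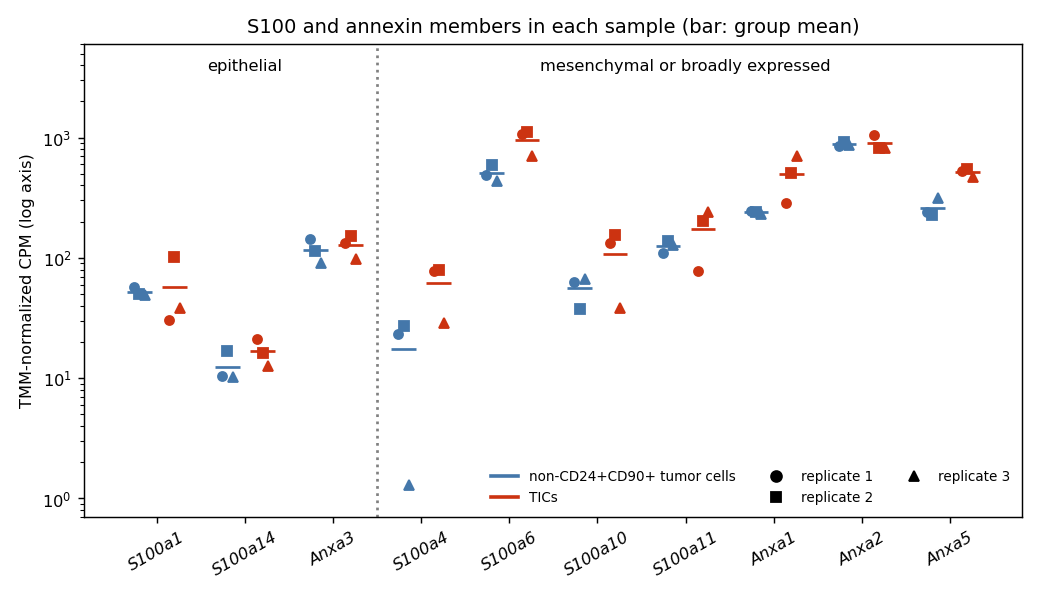
Normalized expression of the 10 members in each sample, on a logarithmic axis in CPM, with 3 samples of the other tumor cells in blue, 3 of TICs in red, a symbol for each replicate and a bar for each group mean. Blue and red points are apart for S100a4, S100a6, Anxa1 and Anxa5 and overlap for the other 6 members.

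Total counts per sample ranged from 6781239 to 9100552, so that 3 counts correspond to 0.33 to 0.442 CPM before TMM scaling. The smallest count of a member was 9 and the largest 9693. On the first principal component TIC replicate 3 lay at 165.3, while the other 5 samples lay between -56.9 and -5.51. On the second, TIC replicate 2 lay at -135.9 and the other 5 samples lay between -8.66 and 66.4. The RNA of the sort markers did not pass the test. Cd24a had a log2 fold change of -0.34 (SE 0.30, adjusted p = 0.98 from edgeR's exactTest), Thy1, which encodes CD90, one of 1.25 (SE 0.50, adjusted p = 0.35), and Ptprc, the CD45 gene, had 33 counts in tumor cell replicate 1 and 0 elsewhere.

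Promoter sequence was taken from RefSeq's start sites on GRCm38.p6 for 7 of the 10 members (S100a10, S100a14 and Anxa3 had no entry). The windows of 250 bases before the start were searched on both strands for TATAAA (the TATA box, present in 12.4% of all 32851 promoter windows), TGANTCA (AP-1, 6.75%), GGGCGG (the GC box, 32.7%) and CAGGTG (an E-box of the Zeb and Snail factors, 17.2%). Shown are 3 of the members in which the groups did not overlap (S100a4, S100a6 and Anxa5) and, for contrast, S100a11, without bases inside the annotated gene and with motif matches in capitals.
S100a4: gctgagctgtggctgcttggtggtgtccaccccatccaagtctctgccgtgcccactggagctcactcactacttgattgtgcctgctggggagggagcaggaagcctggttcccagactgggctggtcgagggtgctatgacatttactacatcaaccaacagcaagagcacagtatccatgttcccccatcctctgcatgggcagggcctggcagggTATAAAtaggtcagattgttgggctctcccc
S100a6: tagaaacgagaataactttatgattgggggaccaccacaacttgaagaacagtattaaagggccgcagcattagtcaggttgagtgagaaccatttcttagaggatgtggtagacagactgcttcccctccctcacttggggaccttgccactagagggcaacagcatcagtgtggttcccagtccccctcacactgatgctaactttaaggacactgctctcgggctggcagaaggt
Anxa5: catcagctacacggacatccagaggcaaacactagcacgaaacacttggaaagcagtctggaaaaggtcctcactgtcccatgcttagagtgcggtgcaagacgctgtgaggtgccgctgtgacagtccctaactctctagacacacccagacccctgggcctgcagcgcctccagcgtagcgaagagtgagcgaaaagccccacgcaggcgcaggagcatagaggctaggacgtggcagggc
S100a11: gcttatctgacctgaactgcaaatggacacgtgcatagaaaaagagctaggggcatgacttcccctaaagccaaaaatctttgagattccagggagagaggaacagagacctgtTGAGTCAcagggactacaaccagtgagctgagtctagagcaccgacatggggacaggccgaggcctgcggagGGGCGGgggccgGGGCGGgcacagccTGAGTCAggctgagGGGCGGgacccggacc
The windows are chr3:90603520-90603769 on the plus strand for S100a4, chr3:90612644-90612881 on the plus strand for S100a6, chr3:36475895-36476137 on the minus strand for Anxa5 and chr3:93520246-93520487 on the plus strand for S100a11. S100a4 has TATAAA at bases -31 to -26 from its start. S100a6 and Anxa5 have none of the 4 motifs, and G and C make up 50.0% and 58.8% of their full windows. S100a11 has TGAGTCA at -136 to -130 and at -38 to -32 and GGGCGG at 3 places. The window of Anxa1, not printed because all of it lies inside the annotated gene, has TATAAA at -32 to -27. The window of Anxa2 has TATAAA at -17 to -12, TGAGTCA at -95 to -89 and GGGCGG at 3 places, and that of S100a1 has none of the motifs. In Anxa2 the last 63 bases of the window lie inside the annotated gene. They hold TATAAA and the GGGCGG at -48 to -43 and at -24 to -19. No window of a member holds CAGGTG. The motifs thus differ among members whose RNA was higher in every TIC sample, and a match describes the letters of the window only.

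Anxa5 (ENSMUSG00000027712) encodes annexin A5, which coats exposed phosphatidylserine and is the basis of the common stain for dying cells. Its level was 242, 228 and 313 CPM in the other tumor cells (replicates 1 to 3) and 526, 547 and 468 CPM in TIC replicates 1 to 3. The lowest TIC sample was thus 1.5 times the highest sample of the other group, the widest gap of any member. The group means were 261 ± 45.5 CPM and 513 ± 40.7 CPM (SD, n = 3), and the log2 fold change was 0.98 (SE 0.28, 95% interval 0.42 to 1.53, adjusted p = 0.063 from edgeR's exactTest). Of the members, Anxa5 also varied least among TICs, with a coefficient of variation of 7.93%. The call was sensitive to the choice of test and to single samples. edgeR's quasi-likelihood test gave an adjusted p of 0.14 and DESeq2 0.0013, and leaving out single samples gave an adjusted p of 0.042 to 0.47 while the log2 fold change stayed between 0.89 and 1.13.

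Anxa1 (ENSMUSG00000024659) encodes annexin A1, a glucocorticoid-induced protein that dampens inflammation through formyl peptide receptors. It was almost the same in the other tumor cells, at 245, 243 and 232 CPM, and varied among TICs, at 288, 508 and 698 CPM. All TICs were above all other samples, TIC replicate 1 by the least. The log2 fold change was 1.05 (SE 0.33, 95% interval 0.40 to 1.71) and the adjusted p was 0.11 in edgeR's exactTest, so that Anxa1 was not called. Without TIC replicate 1 it was 0.002, and without any other sample it was at least 0.29.

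S100a6 (ENSMUSG00000001025), calcyclin, is a regulator of the cytoskeleton and of the ubiquitin ligase adapter CacyBP. It had 488, 595 and 433 CPM in the other tumor cells and 1065, 1107 and 697 CPM in TICs. The groups did not overlap, and TIC replicate 3 was closest to the other tumor cells. The log2 fold change was 0.92 (SE 0.29, 95% interval 0.34 to 1.5, adjusted p = 0.12 from edgeR's exactTest). The adjusted p was 0.012 without TIC replicate 3 and between 0.20 and 0.59 without any other sample.

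S100a4 (ENSMUSG00000001020), whose promoter window shown above holds TATAAA, is also known as fibroblast-specific protein, binds non-muscle myosin and is widely used as a marker of fibroblasts and of epithelial cells in transition. It had 23.3, 27.3 and 1.29 CPM in the other tumor cells and 77.4, 79.7 and 28.5 CPM in TICs. These values rest on 160, 241 and 9 counts in the other tumor cells and on 704, 684 and 216 counts in TICs. The groups did not overlap, but the lowest TIC sample was only 1.04 times the highest of the other tumor cells. S100a4 had the largest fold change of the members and, after S100a14, the largest SE, with a log2 fold change of 1.83 (SE 0.77, 95% interval 0.32 to 3.35, adjusted p = 0.46 from edgeR's exactTest). Without tumor cell replicate 3, the sample with 9 counts, the log2 fold change was 1.29. A read-through gene, Gm42674, shares 302 bases with the exons of S100a4 and has no row in the count files, so its reads cannot be told apart from those of S100a4.

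In the other 3 mesenchymal members the groups overlapped. S100a10 (ENSMUSG00000041959), also called p11, is the partner of annexin A2 and a plasminogen-binding protein of the cell surface. It had 63.6, 37.3 and 66.4 CPM in the other tumor cells and 133, 154 and 38.3 CPM in TICs. TIC replicates 1 and 2 were above all other samples, and TIC replicate 3 was close to the lowest of the other group. The log2 fold change was 0.96 (SE 0.48, 95% interval 0.02 to 1.90, adjusted p = 0.63 from edgeR's exactTest). Without TIC replicate 3 it was 1.39 with an adjusted p of 0.041, and without any other sample it was between 0.62 and 1.11 with an adjusted p of 0.72 or more.

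Anxa2 (ENSMUSG00000032231) encodes annexin A2, which links membranes to actin and assembles plasminogen with its activator at the cell surface. Its level was 849, 914 and 873 CPM in the other tumor cells and 1050, 819 and 813 CPM in TICs. The log2 fold change was 0.02 (SE 0.27, adjusted p = 1 from edgeR's exactTest), and its sign turned when library size alone was used or TIC replicate 1 was left out. The 95% interval of -0.50 to 0.55 leaves room for changes of up to about 1.47-fold. The ratio of S100a10 to Anxa2, both per kilobase of exon, was 0.231, 0.126 and 0.234 in the other tumor cells and 0.391, 0.58 and 0.145 in TICs. The RNA ratio of these partners varied more among TICs than among the other tumor cells, and the groups overlapped in it.

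S100a11 (ENSMUSG00000027907), whose promoter window holds TGAGTCA and GGGCGG, is a ligand of annexin A1 with a part in membrane repair. It had 111, 138 and 129 CPM in the other tumor cells and 78.4, 204 and 242 CPM in TICs. TIC replicate 1 was the lowest and TIC replicates 2 and 3 were the highest of all 6 samples. The log2 fold change was 0.47 (SE 0.39, 95% interval -0.29 to 1.23, adjusted p = 0.98 from edgeR's exactTest). Per kilobase of exon, the ratio of S100a11 to Anxa1 was 2.57, 3.25 and 3.17 in the other tumor cells and 1.55, 2.29 and 1.97 in TICs, lower in every TIC sample. S100a11 has processed pseudogenes, and reads that map to several places had been removed before counting. Gm12854 (99% identity over 297 bases) had 1, 38 and 15 counts in the other tumor cells and 2, 70 and 88 in TICs, and Gm7665 had 17 at most. Adding the counts of both to S100a11, an alternative chosen after the data were seen, gave a log2 fold change of 0.49. No other gene with a row in the count files matched the longest transcript of a member at 95% identity over at least 100 bases. Shorter transcripts of the members were not searched.

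The epithelial members had log2 fold changes from 0.13 to 0.42, each with a 95% interval that included 0. S100a1 (ENSMUSG00000044080), a regulator of calcium handling best known from muscle, had 57.1, 49.8 and 48.9 CPM in the other tumor cells and 30.7, 102 and 38.1 CPM in TICs. TIC replicate 2 was the highest sample and TIC replicates 1 and 3 were the lowest, with a log2 fold change of 0.13 (SE 0.50, 95% interval -0.85 to 1.12, adjusted p = 1 from edgeR's exactTest). Without TIC replicate 2 it was -0.59.

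S100a14 (ENSMUSG00000042306), an epithelial protein linked to cell motility, had 10.4, 16.9 and 10.2 CPM in the other tumor cells and 21.3, 16.2 and 12.5 CPM in TICs, with overlap. Its log2 fold change was 0.42 (SE 0.89, adjusted p = 1 by exactTest in edgeR), and the 95% interval of -1.32 to 2.16 shows that changes of several fold in either direction could have been missed. Anxa3 (ENSMUSG00000029484), the annexin of luminal progenitors, had 144, 114 and 91.0 CPM in the other tumor cells and 133, 151 and 97.9 CPM in TICs. The ranges of the groups overlapped for most of their length. The log2 fold change was 0.13 (SE 0.33, 95% interval -0.53 to 0.79, adjusted p = 1 from edgeR's exactTest).

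The CPM values behind these fold changes were also summarized by class in each sample, which restates them. The classes were not apart gene by gene. The mesenchymal member Anxa2 (0.02) was below all 3 epithelial members (0.13 to 0.42), and S100a11 (0.47) was close to S100a14 (0.42). The mean log2 CPM of the 7 mesenchymal members exceeded that of the 3 epithelial members by 1.95, 1.90 and 1.72 in the other tumor cells and by 2.66, 2.47 and 2.75 in TICs. Every TIC sample had the larger difference, by 0.77 on average. The median log2 fold change was 0.96 for the mesenchymal members, 0.13 for the epithelial members and -0.01 for all genes tested. These are descriptions of a short list, and no test was made of them. All 10 members had a positive log2 fold change, as had 49.7% of all genes, though Anxa2, Anxa3 and S100a1 changed sign when a single sample was left out. The 10 members held 0.219% to 0.246% of all counts in the other tumor cells and 0.293% to 0.366% in TICs.

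Levels of different genes were compared per kilobase of exon (RPKM on the TMM scale), with the exons of all annotated transcripts of a gene merged. The order of genes depends on these lengths. In the other tumor cells S100a6 was highest at 370 ± 60.6 RPKM, followed by S100a11 at 247 ± 27.6 and Anxa2 at 235 ± 8.75, which overlapped each other. Anxa5 came next at 147 ± 25.6, then Anxa1 at 82.4 ± 2.4 and S100a1 at 74.8 ± 6.43, again with overlap. S100a10, Anxa3 and S100a4 followed at 46.0 ± 13.2, 31.9 ± 7.29 and 29.7 ± 24.0 with overlapping samples, and S100a14 was last at 7.22 ± 2.22, overlapping S100a4 (SD, n = 3).

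In TICs S100a6 was again first at 700 ± 165 RPKM, with all 3 samples above those of the next gene. S100a11, Anxa5, Anxa2, Anxa1, S100a4, S100a10 and S100a1 formed a run from 342 ± 167 down to 81.9 ± 56.3 RPKM in which each gene overlapped the next. Anxa3 at 34.9 ± 7.42 and S100a14 at 9.66 ± 2.56 RPKM were each apart from the gene above (SD, n = 3). The ratio of Anxa2 to Anxa5 per kilobase was 1.67, 1.91 and 1.33 in the other tumor cells and 0.951, 0.713 and 0.827 in TICs. The exon lengths used were 3731 bases for Anxa2 and 1777 for Anxa5. With them, Anxa5 was below Anxa2 in every sample of the other tumor cells and above it in every TIC sample. In CPM Anxa2 was above Anxa5 in every sample, so only the lower ratio in TICs is independent of the lengths.

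The TIC samples did not rank alike. TIC replicate 2 was the highest TIC sample in 6 members and TIC replicate 3 the lowest in 7. TIC replicate 3 was instead the highest in Anxa1 and S100a11, where TIC replicate 1 was the lowest. The coefficient of variation was larger among TICs than among the other tumor cells in 6 members, up to 68.7% for S100a1 and 56.9% for S100a10.

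The number of members called depended on the test and on single samples. The quasi-likelihood test called 0 members (0.41% of all genes), and 4 members had an unadjusted p below 0.05 in it, beside 965 of 12192 genes. DESeq2 called Anxa1, Anxa5 and S100a6 (2.58% of the 11849 genes to which it gave an adjusted p). The same 3 members were called with RLE factors (1.63%) and among genes with at least 10 counts in every sample (3.15%). Library size alone (1.25%), no filter on low counts (0.652%) and an adjusted p below 0.05 (0.951%) each gave 0 members. In exactTest 4, 5 and 5 members had an unadjusted p below 0.05, beside 966 of 12192, 926 of 17168 and 957 of 12192 genes. Without TIC replicate 1, Anxa1 and Anxa5 were called (2.76% of 11688 genes tested). Without TIC replicate 3, Anxa5, S100a6 and S100a10 were called (1.08% of 11810). No member was called without TIC replicate 2 (0.865%) or without tumor cell replicate 1 (0.741%), 2 (0.773%) or 3 (0.613%). In each of these exactTest fits 3 or 4 members had an unadjusted p below 0.05. So had 877 of 11786 genes without TIC replicate 2. Without tumor cell replicates 1, 2 and 3, so had 701 of 11746, 721 of 11643 and 681 of 11755 genes.

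**Figure D2:**
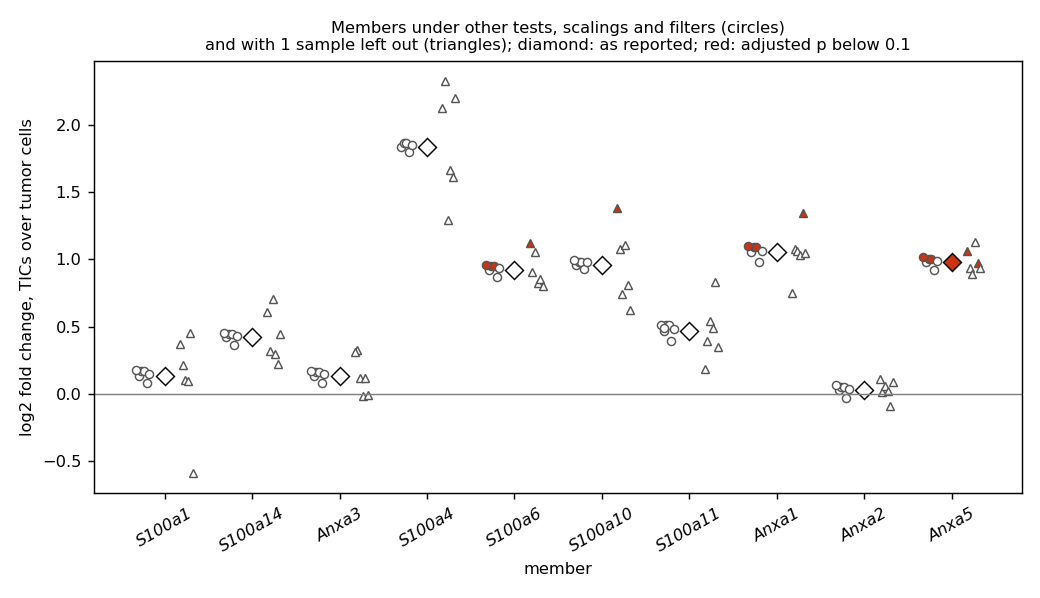
Log2 fold change of each member, TICs over the other tumor cells, as reported (diamonds), under other tests, normalizations and filters (circles) and with 1 sample left out (triangles), filled red where the adjusted p was below 0.1. Red symbols occur for Anxa5, Anxa1, S100a6 and S100a10, and the symbols of S100a1, Anxa2 and Anxa3 lie on both sides of 0.

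The remaining genes of the families set the members in context. The lists held 29 genes, of which 28 had a row in the files and 20 were tested. Anxa5 was the only gene called among these 20. Of the 10 tested family genes that are no members, 3 had a positive and 7 a negative log2 fold change, with a median of -0.20. None was called by edgeR's exactTest (0 with an unadjusted p below 0.05), the quasi-likelihood test (2 with such a p) or DESeq2 (1 with such a p). Over all 12192 genes, 957, 965 and 1127 had such a p by exactTest, the quasi-likelihood test and DESeq2. S100a13 (0.57) and Anxa6 (0.33) were above the other group in every TIC sample. For Anxa6 the gap was small, from 207 CPM in tumor cell replicate 3 to 210 CPM in TIC replicate 3. S100b (-0.72) and Anxa4 (-0.52) were below the other group in every TIC sample, as were 7.55% of all genes. The members were chosen with earlier results of these data known, so their contrast with the other family genes is a description. S100a8, a neutrophil protein that normally pairs with S100A9, had 68.8 to 118 CPM in the other tumor cells and 77.7 to 147 CPM in TICs, whereas S100a9 had 11 counts in TIC replicate 1 and 0 in the other 5 samples. Anxa11, S100a5, S100a7a, S100z, Anxa10 and Anxa13 had no count in any sample, at depths where 3 counts correspond to at most 0.442 CPM before TMM scaling. That value is not a detection limit, since S100a3 had 131 counts in tumor cell replicate 1 and 0 in the other 5 samples. Whether the genes without a count were absent from the cells was not tested.

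**Figure D3:**
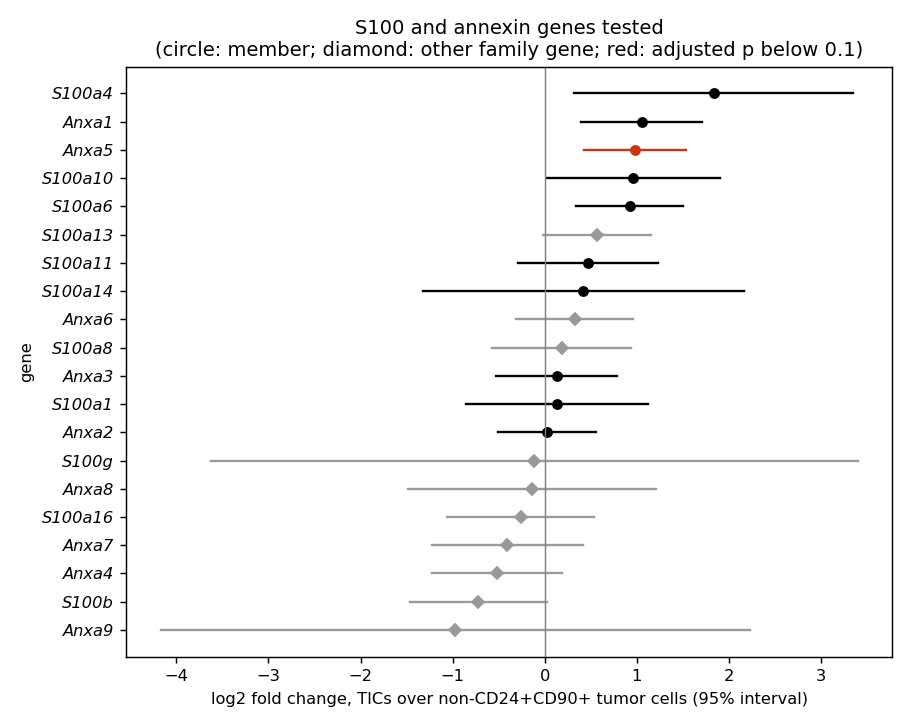
Log2 fold change, TICs over the other tumor cells, with its unadjusted 95% interval for the 20 S100 and annexin genes tested, members as circles, other family genes as diamonds and the gene with an adjusted p below 0.1 in red. The 10 members all lie above 0, while 7 of the 10 other family genes lie below it.

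The S100 members share a chromosome. On GRCm38, 11 S100 genes of the list lie between 90511034 and 90695721 of chromosome 3, and S100a11 and S100a10 form a second group between 93520488 and 93564643 of the same chromosome. Anxa5 is also on chromosome 3, at 36448923 to 36475894, but far away from both groups. Anxa1 lies on chromosome 19 (20373428 to 20390944, minus strand), Anxa2 on chromosome 9 (69453620 to 69491795, plus strand) and Anxa3 on chromosome 5 (96793339 to 96845966, plus strand). Within the larger group S100a4 (90603771 to 90606045) and S100a6 (90612882 to 90624181) are neighbors on the plus strand, with S100a5 between them, which had no count. S100a1 (90511034 to 90514392, minus strand), S100a13, S100a14 (90526856 to 90528837, plus strand) and S100a16 lie together at the start of the group, and their log2 fold changes in TICs were 0.13, 0.57, 0.42 and -0.26. S100a4 and S100a6 were the only genes of the group, beside S100a13, in which all TICs were above all samples of the other tumor cells. No other protein-coding gene within the group was tested.

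**Figure D4:**
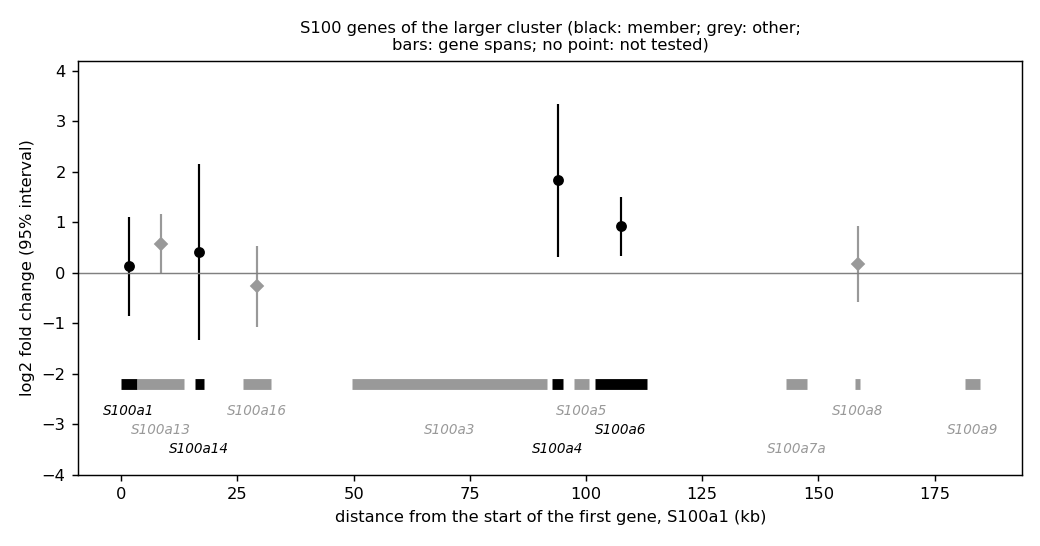
Log2 fold change with its 95% interval of the tested S100 genes of the larger group, plotted at the middle of each gene by distance in kb from the start of S100a1, with gene spans as bars and members in black. S100a4 and S100a6, about 100 kb from S100a1, lie higher than S100a1, S100a14 and S100a16 near the left edge, with overlapping intervals.

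Partners and receptors of the families were read from a list of 12 genes, of which 8 were tested and 1 was called. Plat, the tissue plasminogen activator that binds the annexin A2 heterotetramer, had 47.4, 20.7 and 34.3 CPM in the other tumor cells and 88.6, 93.3 and 170 CPM in TICs, without overlap. Its log2 fold change was 1.78 (SE 0.43, adjusted p = 0.012 from edgeR's exactTest), and it was not called by the quasi-likelihood test (adjusted p = 0.14), nor without tumor cell replicates 2 or 3 (0.19 and 0.12) or TIC replicate 3 (0.16). Plg, the gene of its substrate, had no count in any sample. Ahnak, the large scaffold bound by S100A10 and annexin A2, had 218, 280 and 236 CPM in the other tumor cells and 268, 421 and 345 CPM in TICs (log2 fold change 0.49, adjusted p = 0.83). Myh9, the myosin heavy chain that S100A4 binds, was abundant in both groups and had a log2 fold change of -0.14 (95% interval -0.67 to 0.40). The other 5 tested genes, Cacybp, Sugt1, Tlr4, Hltf and Dysf, were not called, and the highest log2 fold change among them was 3.96 for Dysf (adjusted p = 0.71 from exactTest), which had 22.2 CPM in TIC replicate 2 and at most 2.64 CPM in the other samples. Of the receptors, Fpr1 had no count, Fpr2 had 55 counts in TIC replicate 1 only, and Ager, which encodes RAGE, had 68 counts in tumor cell replicate 2 only.

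Cell type markers were read beside the members. The summed level of 7 fibroblast markers was 2738 to 3139 CPM in the other tumor cells and 7333 to 10719 CPM in TICs, 4 of the 7 (Col1a1, Col1a2, Col3a1 and Dcn) were called higher, and their median log2 fold change of 1.48 was larger than the 0.96 of the mesenchymal members. Dcn was not called by the quasi-likelihood test (adjusted p = 0.11), nor by exactTest without tumor cell replicates 2 or 3 (0.13 and 0.12). The extremes of that list were Col1a2 at 2.01 and Pdgfra at 0.65. The sum of 7 pericyte or smooth muscle markers was 527 to 661 CPM and 941 to 1369 CPM, with 1 of 7 called higher (Rgs5 at 1.45, the highest value being 1.96 for Cspg4 and the lowest -0.01 for Acta2). The sum of 6 endothelial markers was 125 to 150 CPM and 179 to 550 CPM. None was called by any of the 3 tests, with 3 at an unadjusted p below 0.05 in each (from 0.98 for Cdh5 to 1.60 for Kdr). Such a p was reached by 957, 965 and 1127 of all 12192 genes in exactTest, the quasi-likelihood test and DESeq2.

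Epithelial RNA was present in every sample. The summed level of 9 luminal markers was 5938 to 6298 CPM in the other tumor cells and 3913 to 4633 CPM in TICs. None of them was called by exactTest (2 with an unadjusted p below 0.05) or the quasi-likelihood test (3), DESeq2 called Krt18 and Cdh1, and the log2 fold changes ran from -0.72 for Elf5 to 0.75 for Esr1. The 4 basal markers summed to 449 to 983 CPM and 356 to 583 CPM, with none called by the 3 tests and 1 at an unadjusted p below 0.05 in each (from -0.81 for Krt14 to 0.67 for Krt17). Of the leukocyte markers, Cd3e and Adgre1 had no count, Lyz2, a gene of macrophages and neutrophils, was called higher by exactTest with a log2 fold change of 2.68, Csf1r was lowest at -1.68, and the sums of 16.7 to 35.6 CPM and 32.1 to 83.2 CPM overlapped. Lyz2 was not called by the quasi-likelihood test (adjusted p = 0.14), nor by exactTest without tumor cell replicate 3 (0.13) or TIC replicate 2 (0.22). Of 3 adipocyte markers Adipoq and Plin1 had no count, and Fabp4, which endothelial cells also express, was called higher with a log2 fold change of 2.75. The part of these cell types in the levels of the members was not tested. Among TICs the fibroblast sum was lowest in replicate 1, as were Anxa1 and S100a11, whereas the other 5 mesenchymal members, S100a4, S100a6, S100a10, Anxa2 and Anxa5, were lowest in replicate 3, where the fibroblast sum was highest. Lyz2 had 9.63, 11.8 and 4.29 CPM in the other tumor cells and 62.0, 75.3 and 28.0 CPM in TICs. Among TICs it was highest in replicate 2 and lowest in replicate 3, as were S100a4, S100a6, S100a10, Anxa3 and Anxa5. The other tested leukocyte markers, Cd68 and Csf1r, were instead highest in TIC replicate 1. Replicate numbers follow the order of the samples and do not pair the groups. Of the 3 leukocyte markers tested, 1 had a positive and 2 had a negative log2 fold change.

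**Figure D5:**
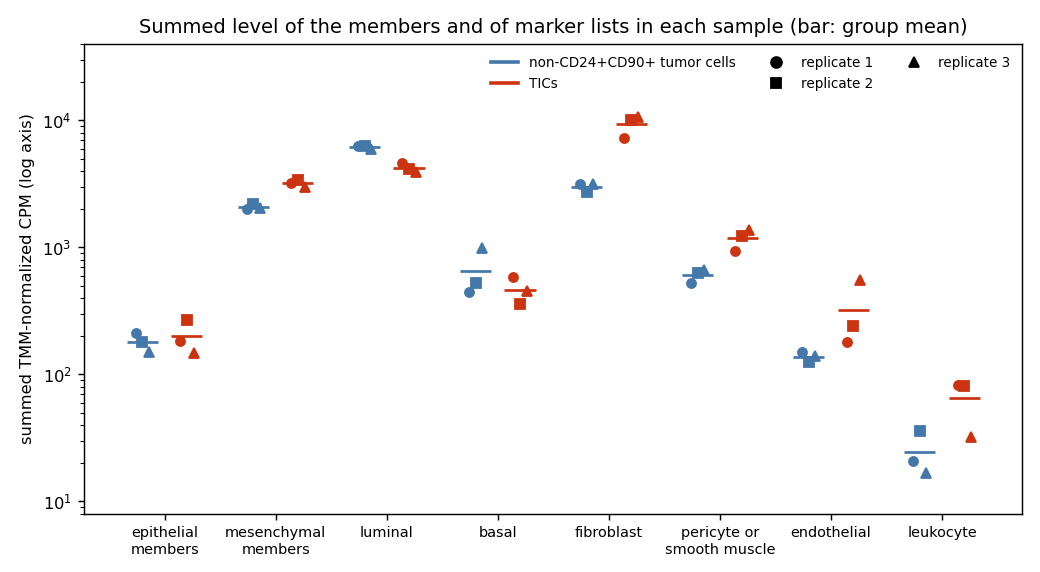
Summed CPM of the epithelial members, the mesenchymal members and the lists of cell type markers in each sample, on a logarithmic axis, with blue for the other tumor cells, red for TICs and a bar for each group mean. The mesenchymal members, fibroblast markers, pericyte or smooth muscle markers and endothelial markers are higher in all 3 TIC samples, the luminal markers are lower in all 3, and the epithelial members overlap.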

How the data were processed

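RNA-seq libraries of sorted TICs (n = 3) and non-CD24+CD90+ tumor cells (n = 3) were analysed. Per the labels and the study's methods, the authors used Trimmomatic 0.32 for trimming and STAR 2.4.0 for alignment to GRCm38, removed reads that were not uniquely mapped with SAMtools 1.1 and counted the rest with HTSeq, and the deposited values are raw counts per Ensembl gene. The annotation release and strand setting are not given in the sources used here. Groups follow the sample descriptions, and replicate numbers follow the order of the samples and were not used for pairing. Pools of both groups may share mice, which could not be modeled. Each sample is a pool of sorts. P-values rest on the spread between these pools, with the dispersion of each gene drawn toward that of other genes.

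Genes above 1 CPM in at least 3 samples were kept. Counts were TMM-normalized in edgeR 4.0.16 (R 4.3.3) and compared with exactTest, the study's test, using tagwise dispersions. The common dispersion was 0.678. P-values were adjusted by Benjamini-Hochberg over the 12192 genes tested. SEs and 95% Wald intervals came from the negative binomial fit and are not adjusted. For 1 gene, the smallest p-value of an exact permutation test of 3 samples against 3 is 0.1. Symbols, positions and exon lengths came from GENCODE M21 on GRCm38 (40254 of 41388 genes had a symbol). The scripts were tested on simulated data.

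The members and lists were chosen with earlier results of these data known. The genes named are the members, called genes of the family and partner lists, the sort markers and the extremes of the marker lists. Other genes were named after their values were seen. Promoter sequences came from RefSeq on GRCm38.p6. Alternatives were the quasi-likelihood test, DESeq2 1.42.0, RLE factors, library size alone, other filters, an adjusted p below 0.05 and each sample left out. The sum of S100a11 and its pseudogenes was added after the data were seen. S100a7l2 had no matching row. The values of 1 listed marker are not reported here.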

Additional observations from a re-analysis of the deposited data

How the results depend on the processing

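Of the 10 members, 0 were called by edgeR's quasi-likelihood test, where 4 had an unadjusted p below 0.05, as had 965 of 12192 genes. With library size alone, without the filter on low counts and at an adjusted p below 0.05, 0 were called in each case. DESeq2, RLE factors and at least 10 counts in every sample each gave 3 (Anxa1, Anxa5 and S100a6). In the last of these settings S100a4 was not tested. The S100 and annexin families gave the same counts, since no other gene of them was called. With each sample left out, 0 to 3 members were called: 2 (Anxa1 and Anxa5) without TIC replicate 1, 3 (Anxa5, S100a6 and S100a10) without TIC replicate 3 and 0 without any of the other 4 samples. Over all genes, 50 were called by the quasi-likelihood test, 306 by DESeq2, 112 without the filter, 116 at 0.05 and 72 to 323 with each sample left out, the fewest without tumor cell replicate 3 and the most without TIC replicate 1. Of the partners and receptors 0 were called by the quasi-likelihood test (1 had an unadjusted p below 0.05) and 0 to 1 with each sample left out. Signs turned for Anxa2 with library size alone (-0.034) and without TIC replicate 1 (-0.092, the others up to 0.11), for Anxa3 without tumor cell replicate 3 (-0.015) or TIC replicate 2 (-0.0093, the others up to 0.33) and for S100a1 without TIC replicate 2 (-0.59, the others up to 0.45). The median log2 fold change with each sample left out ranged from 0.81 to 1.06 for the mesenchymal and from -0.01 to 0.37 for the epithelial members. The causes were not tested. With TIC replicate 1 left out, 69.7% of the called genes were higher in TICs, against 87.8% with all samples, 75.5% by DESeq2 and 98.0% by the quasi-likelihood test. No paired analysis was possible because the labels give no replicate numbers, although pools of both groups may share mice.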
